A study of Mus musculus with 18 samples.

Results

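Beta-oxidation is the route by which mitochondria and peroxisomes shorten fatty acids for energy, and the genes Acadm, Acadl, Acadvl, Cpt2 and Ucp2 were chosen by name, as every probe set whose platform gene symbol is 1 of these 5. Of the 5 genes, 4 had a probe set in the table used here, with 6 probe sets in all, among 8251 genes and 12422 tested probe sets. Ucp2, which encodes an inner-membrane carrier of the uncoupling protein family, matched no probe set by symbol and was not analysed here. None of the 4 genes is specific to peroxisomes, so peroxisomal oxidation is described from related genes.

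RNA came from 3T3-F442A adipocytes, fat cells that a mouse preadipocyte line forms in culture, and was read on 18 Affymetrix MG_U74Av2 arrays. The groups were growth hormone (GH) for 30 min, 4 h and 48 h and control cells at the same 3 times, and each of 3 numbered experiments supplied 1 array to every group. All groups share the line, and the labels give no GH dose, vehicle or culture condition. Title and description disagree on the group of 3 arrays (GH 30 min in experiment 1, GH 4 h in experiment 3 and control 48 h in experiment 3), and the titles were followed. Nothing beyond the experiment number says that replicates were separate cultures, so the p-values rest on the spread among these arrays, which may be technical. Of the adipocyte markers 10 of 10 measured genes were above background, with a signal of 25550.2 to 38210.6 for Adipoq (adiponectin) over the 18 arrays. Preadipocyte and fibroblast genes were also detected (9 of 10), and their summed signal ran from 16971.4 to 57918.1. Of 5 measured brown or beige fat cell markers, 1 (Cidea) was above background, and Ucp1, the heat-producing uncoupling protein of brown fat, stayed at 17.8 to 90.7. Above background were also 3 of 7 macrophage and leukocyte markers (Cd68, Csf1r and Cd14) and 3 of 5 muscle markers (Ckm, Actn3 and Des). Of 3 measured liver markers 0 were.

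Long fatty acids reach the mitochondrial matrix bound to carnitine, and Cpt2 (carnitine palmitoyltransferase 2), on the inner membrane, turns the incoming acyl-carnitine back into acyl-CoA. An acyl-CoA dehydrogenase then takes the first oxidative step of each round, with Acadvl acting on very long, Acadl on long and Acadm on medium chains. White fat cells mainly store and release fatty acids, and oxidation is more prominent in brown fat, liver, heart and muscle.

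Promoter windows of the 3 genes with signals above background are shown, because GH acts largely through the transcription factor STAT5 and these genes are known targets of nuclear receptors. The sequences are RefSeq's for build GRCm38.p6, each of 300 bases on the gene's own strand, from 250 before to 50 after the start: Acadm at chr3:153944594-153944893, Acadl at chr1:66863260-66863559 and Cpt2 at chr4:107923540-107923839, all on the minus strand. Capitals mark matches, on either strand, to TTCNNNGAA (the STAT5 type), AGGTCA (the core element of nuclear receptors) and GGGCGG (the box read by Sp1).
Acadm: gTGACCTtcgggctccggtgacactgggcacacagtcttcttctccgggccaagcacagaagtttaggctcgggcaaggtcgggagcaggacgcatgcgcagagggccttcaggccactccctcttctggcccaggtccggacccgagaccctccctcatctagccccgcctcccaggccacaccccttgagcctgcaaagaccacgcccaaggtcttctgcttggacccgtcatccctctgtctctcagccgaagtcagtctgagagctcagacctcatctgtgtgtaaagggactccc
Acadl: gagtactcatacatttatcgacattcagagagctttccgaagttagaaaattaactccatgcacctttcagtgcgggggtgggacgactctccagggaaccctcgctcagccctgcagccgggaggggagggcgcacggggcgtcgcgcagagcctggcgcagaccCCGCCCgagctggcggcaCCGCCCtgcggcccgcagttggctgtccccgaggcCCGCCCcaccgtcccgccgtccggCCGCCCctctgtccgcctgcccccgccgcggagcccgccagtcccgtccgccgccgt
Cpt2: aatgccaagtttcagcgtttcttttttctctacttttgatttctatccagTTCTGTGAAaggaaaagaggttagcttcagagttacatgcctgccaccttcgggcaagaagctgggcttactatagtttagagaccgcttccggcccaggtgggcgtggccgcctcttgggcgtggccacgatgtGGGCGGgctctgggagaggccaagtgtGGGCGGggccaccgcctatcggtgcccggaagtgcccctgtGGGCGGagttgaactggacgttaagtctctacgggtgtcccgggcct
Cpt2 had 1 match to the STAT5 type, TTCTGTGAA, beginning 200 bases before the start, and Acadm and Acadl had 0. Of 32851 promoter windows of this length, 8.3% held such a match. Acadm had 1 AGGTCA match, read as TGACCT beginning 249 bases before the start, a match that 16.3% of all windows held. GGGCGG occurred 4 times in Acadl and 3 times in Cpt2, against 35.7% of all windows with at least 1. The longer AGGTCANAGGTCA, found in 0.0396% of all windows, was in none of the 3. These matches describe letters in the window and say nothing about binding.

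Signals are the authors' linear values, already scaled to match between arrays. The background limit used here is 105.6, the highest of 342 signals from 19 probe sets for yeast and Bacillus transcripts, whose median was 14.95. Acadm (probe set 92581_at), Acadl (95425_at) and Cpt2 (95646_at) were above that limit on 18 of 18 arrays. Both Acadvl probe sets (93334_at, 1.7 to 63.5, and 161623_at, 1.8 to 39.6) and the second Cpt2 probe set (161978_r_at, 1.2 to 13.3) were below it on every array. Acadvl RNA was therefore not measured above background by this chip, and the second Cpt2 probe set adds nothing to the first.

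GH changed none of the 6 probe sets past the threshold at any time. By limma on log2(signal + 25), with p-values adjusted over all 12422 probe sets and a threshold of 0.05, 0 of 6 passed at 30 min, where 0.0403% of all probe sets did. At 4 h 0 of 6 passed, against 0.121% of all probe sets, and at 48 h 0 of 6, against 0.338%. With the experiments as a replicate block the counts for these 6 were again 0, 0 and 0, against 0.0805%, 0.362% and 1.27% of all probe sets. At each time 1 of the 6 had an unadjusted p below 0.05, and each time it was the near-background Acadvl probe set 93334_at. Of all probe sets 2.45%, 6.86% and 6.5% had such a p at 30 min, 4 h and 48 h. With so few probe sets and such a low share called, a count of 0 is near the background.

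Acadm, the medium-chain dehydrogenase, varied least. At 30 min its signal was 6756.2, 7375.8 and 6752.1 with GH in experiments 1, 2 and 3, against 7274.5, 7019 and 7033.3 in controls. At 4 h it was 6870.6, 6894.2 and 9491.8 with GH, against 6886.5, 6582.8 and 6889.2 in controls. At 48 h it was 7563.3, 8066.7 and 8570.6 with GH, against 6927.8, 5859.3 and 10574.3 in controls. GH and control arrays overlapped at every time, and the highest value of all was a control array, the 48 h one of experiment 3 whose description names 4 h. The change was -0.03 ± 0.19 at 30 min, 0.17 ± 0.19 at 4 h and 0.09 ± 0.19 at 48 h (log2 ± SE, n = 3 per group; limma, adjusted p = 1.00, 0.976 and 0.993). In fold terms the 95% intervals were 0.737 to 1.30 at 30 min, 0.851 to 1.50 at 4 h and 0.805 to 1.42 at 48 h. Within experiments GH was higher in 1, 2 and 2 of 3 at the 3 times. With the replicate block the SE was 0.17 and the adjusted p 0.999, 0.808 and 0.915 (limma).

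Cpt2, the inner-membrane transferase, had 2535.7, 3547.1 and 3018.5 with GH at 30 min, against 2743.9, 3715.7 and 2887.6 in controls. At 4 h it had 2788.4, 3386.7 and 4436 with GH, against 2201, 3219.6 and 3204.3 in controls. At 48 h it had 3105.5, 3533.5 and 3450.1 with GH, against 3036, 2856 and 4420.6 in controls. Groups overlapped at every time, although at 4 h GH was higher within each of the 3 experiments, by 0.34, 0.07 and 0.47 on the log2 scale. The change was -0.04 ± 0.23, 0.29 ± 0.23 and -0.01 ± 0.23 at 30 min, 4 h and 48 h (log2 ± SE, n = 3 per group; limma, adjusted p = 1.00, 0.921 and 0.998). The 95% interval at 4 h was 0.877 to 1.71 in fold. With the replicate block the SE was 0.18 and the adjusted p at 4 h 0.615 (limma).

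Acadl, the long-chain dehydrogenase, had the widest spread of the 3 detected genes. At 30 min its signal was 882.6, 1668.8 and 1096.4 with GH, against 1317.9, 1235.6 and 1096.6 in controls. At 4 h it was 687.6, 661.1 and 470.8 with GH, against 972.5, 1031.6 and 644.9 in controls. At 48 h it was 1401.3, 1239.5 and 503.1 with GH, against 1406.2, 837.2 and 1085.1 in controls. At 4 h GH was lower within each of the 3 experiments, by -0.49, -0.62 and -0.43 on the log2 scale, but the groups overlapped because the control array of experiment 3 was low as well. The limma change was -0.51 ± 0.34 at 4 h (adjusted p = 0.878, with the block 0.581), with a 95% interval of 0.425 to 1.15 in fold. It was -0.05 ± 0.34 at 30 min and -0.17 ± 0.34 at 48 h (adjusted p = 1.00 and 0.993). At 48 h the sign rests on single arrays: the change was 0.27 without the GH array of experiment 3 and 0.01 without the control array of experiment 1. Over the 6 arrays of each experiment, the Acadl signal averaged 1111 in experiment 1, 1112 in experiment 2 and 816 in experiment 3.

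**Figure D1:**
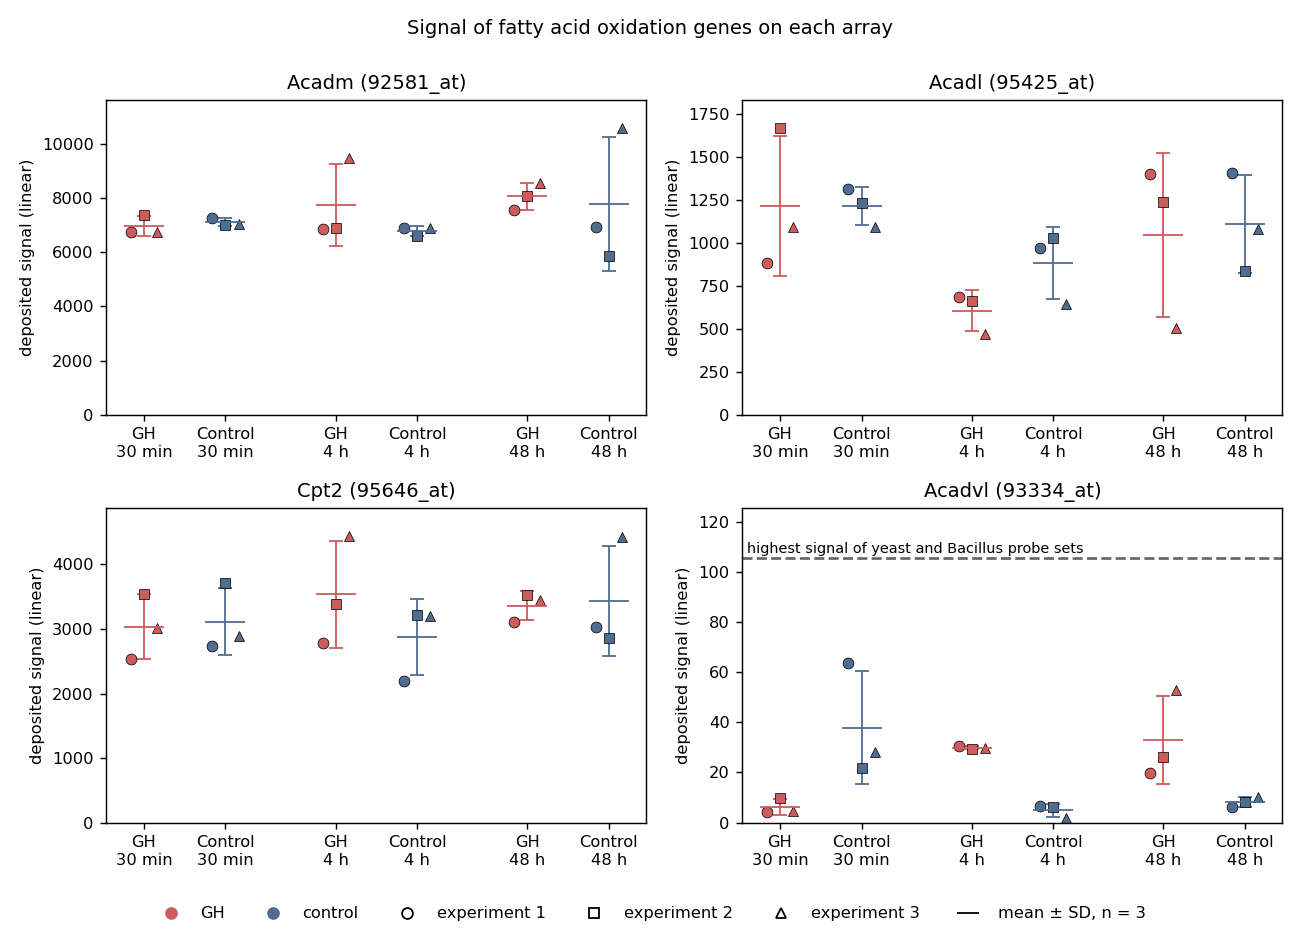
Deposited signal (linear, vertical axis) of Acadm, Acadl, Cpt2 and Acadvl 93334_at on each of the 18 arrays, with GH left of control at 30 min, 4 h and 48 h; symbols are experiments and bars the mean ± SD of 3 arrays. Groups overlap for Acadm, Acadl and Cpt2 at every time, and every Acadvl value lies below the dashed background limit of 105.6.

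The order of the 6 group means left no pair of neighbours apart for the detected genes. For Acadm it ran from GH 48 h (8067 ± 504) through control 48 h (7787 ± 2472), GH 4 h (7752 ± 1507), control 30 min (7109 ± 144) and GH 30 min (6961 ± 359) to control 4 h (6786 ± 176; mean signal ± SD, n = 3). For Cpt2 GH 4 h (3537 ± 834) was highest and control 4 h (2875 ± 584) lowest. For Acadl control 30 min (1217 ± 112) was highest and GH 4 h (606.5 ± 118) lowest. In each of these orders the arrays of every group overlapped with those of the next. Acadl at 4 h was the lowest among both the GH and the control groups.

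Acadvl 93334_at, the very-long-chain dehydrogenase, is given apart because all its values lie below the background limit. At 30 min it had 4.4, 9.9 and 4.5 with GH, against 63.5, 21.6 and 28.3 in controls. At 4 h it had 30.6, 29.4 and 29.8 with GH, against 6.7, 6.1 and 1.7 in controls. At 48 h it had 19.6, 26.3 and 53 with GH, against 6.4, 8.4 and 10.3 in controls. The groups did not overlap at any of the 3 times, lower with GH at 30 min and higher at 4 h and 48 h. Groups were likewise clear of each other for 6.83%, 11.4% and 10.2% of all probe sets at these times, and for 8.96%, 9.13% and 6.15% of those with both means below the limit. These shares are for each time alone, and the share clear at all 3 times was not computed. The differences were -0.95 ± 0.23, 0.88 ± 0.23 and 0.76 ± 0.23 on the log2(signal + 25) scale (limma, adjusted p = 0.645, 0.284 and 0.311; 0.452, 0.144 and 0.204 with the block). Over the 19 yeast and Bacillus probe sets the same difference ran from -0.82 to 0.57 at 30 min, from -0.66 to 0.81 at 4 h and from -0.62 to 0.70 at 48 h. Acadvl 93334_at lay just outside these ranges at each time. They rest on only 19 probe sets, and whether Acadvl differs from background was not tested. The other Acadvl probe set, 161623_at, had differences of -0.19, 0.01 and -0.00, and its groups overlapped at every time. No fold is given for Acadvl, since both groups are below the limit.

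**Figure D2:**
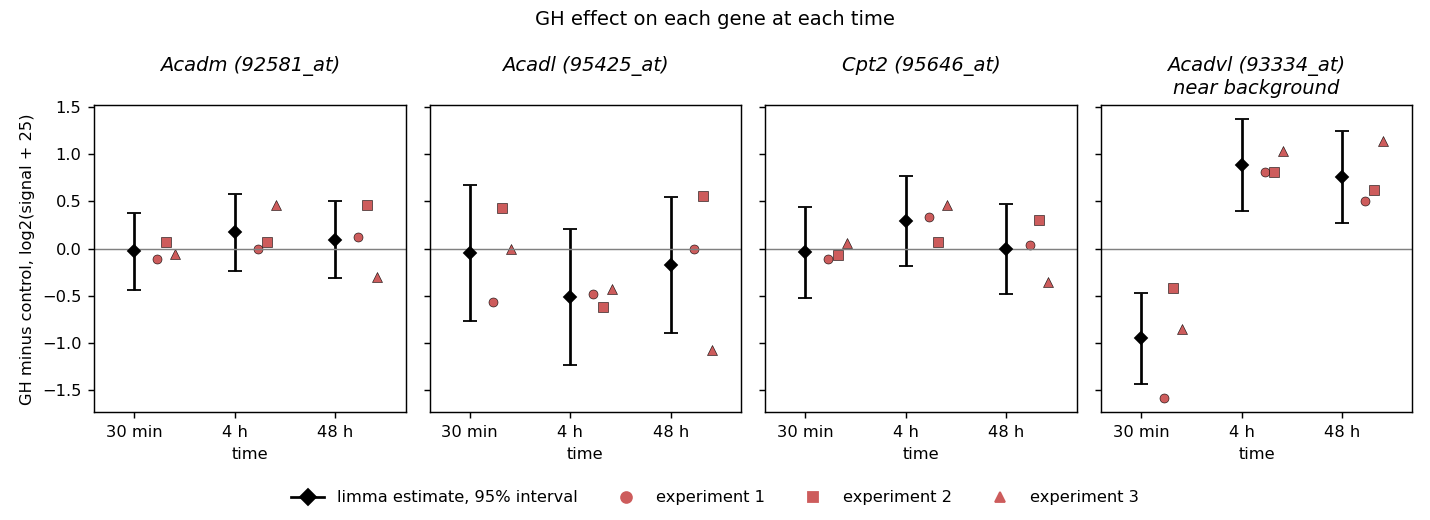
GH minus control on the log2(signal + 25) scale (vertical axis) at 30 min, 4 h and 48 h for Acadm, Acadl, Cpt2 and Acadvl 93334_at; diamonds are limma estimates with 95% intervals and the other symbols single experiments. The intervals of Acadm, Acadl and Cpt2 include 0 at every time, those of the near-background Acadvl probe set do not, and its adjusted p was 0.284 or more.

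Averaging the GH effect over the 3 times narrowed the intervals without bringing a gene past the threshold. By limma 0 of the 6 probe sets passed, with 0 at an unadjusted p below 0.05, where 0.177% of all probe sets passed and 6.25% had such a p (0 of 6 with the block, against 0.668%). Acadm had 0.08 ± 0.11, with an interval of 0.897 to 1.24 in fold, and Cpt2 had 0.08 ± 0.13, with 0.873 to 1.28. Acadl had -0.25 ± 0.20, with 0.633 to 1.13 in fold (adjusted p = 1.00 for each of these 3 genes).

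The GH effect was not shown to differ between times for any of the 6 probe sets. In limma's tests of the difference 0 of 6 passed for 4 h minus 30 min (0.0161% of all probe sets did), 0 for 48 h minus 4 h (0.00805%) and 0 for 48 h minus 30 min (0.0644%). With the block 0 of 6 passed in each, against 0.0725%, 0.0% and 0.177% of all probe sets. The number with an unadjusted p below 0.05 was 1, 0 and 1, in both cases Acadvl 93334_at, against 4.42%, 4.92% and 5.0% of all probe sets. Its differences between times were 1.84 ± 0.32 for 4 h minus 30 min (adjusted p = 0.0687) and 1.71 ± 0.32 for 48 h minus 30 min (adjusted p = 0.0936). For Acadm, Cpt2 and Acadl the differences for 4 h minus 30 min were 0.21 ± 0.27, 0.33 ± 0.32 and -0.47 ± 0.48.

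Between control times 0 of 6 probe sets passed by limma in any of the 3 comparisons. The shares of all probe sets were 0.0886% for 4 h against 30 min, 0.0% for 48 h against 4 h and 0.129% for 48 h against 30 min (0.0966%, 0.00805% and 0.338% with the block, where again 0 of 6 passed). Unadjusted, 1, 0 and 1 of the 6 had a p below 0.05, again Acadvl 93334_at, against 2.99%, 4.12% and 5.46% of all probe sets. For 48 h against 30 min the control change was 0.09 ± 0.19 for Acadm, 0.13 ± 0.23 for Cpt2 and -0.16 ± 0.34 for Acadl. These control arrays are those the GH comparisons use.

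Acadm and Cpt2 went up and down together across arrays, with a Pearson r of 0.72 on the log2(signal + 25) scale over 18 arrays and 0.68 after the group means were taken out. Acadl followed neither, at -0.18 with Acadm and -0.15 with Cpt2. The points share arrays, experiments and scaling, and no test was made. Both Acadm and Cpt2 had their 2 highest values on the GH 4 h and control 48 h arrays of experiment 3, both among the 3 arrays whose description names another group. How far the r of 0.72 rests on these 2 arrays was not tested. Of named probe sets above background, those most like Acadm over the 18 arrays were Reep5 (r = 0.87), which encodes a protein that shapes the endoplasmic reticulum, Ndufb6 (0.84), a subunit of respiratory complex I, and Cops7a (0.82), a subunit of the COP9 signalosome. Most like Cpt2 were 2 probe sets of Slc25a1 (0.85 and 0.82), the mitochondrial citrate carrier, and Mrpl4 (0.80), a protein of the mitochondrial ribosome. Most like Acadl were Mnt (0.87), a partner of Max, Irs2 (0.81), an insulin receptor substrate, and Uri1 (0.80). For the near-background Acadvl probe set they were Prkd2 (0.87), Ncoa1 (0.78) and Ccne1 (0.75). After the group means were taken out, these became 0.79, 0.59 and 0.36, and Uri1 with Acadl became 0.64. For the other neighbours of Acadm, Cpt2 and Acadl, r then ran from 0.82 to 0.94. The neighbours of each gene are the 3 highest r among all such probe sets, so their r is high partly by selection. That holds also for a probe set below background.

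Related genes of the pathway were taken from 8 lists by role, 108 symbols in all (Mut and Mmut are names of 1 gene), of which 75 had a probe set and 63 a mean signal above the background limit. By limma 0 of the 75 passed at 30 min, 4 h, 48 h or averaged over the times, where 0.0403%, 0.121%, 0.338% and 0.177% of all probe sets did. At an unadjusted p below 0.05 there were 1, 9, 7 and 9 of the 75 (1.33%, 12%, 9.33% and 12%), against 2.45%, 6.86%, 6.5% and 6.25% of all probe sets. Among probe sets with a mean above the limit, as most of the 75 are, the shares were 1.47%, 7.94%, 7.76% and 7.37%. With the replicate block 0, 0, 1 and 0 passed, against 0.0805%, 0.362%, 1.27% and 0.668% of all probe sets. The 1 at 48 h was Oxct1, and 1 of 75 (1.33%) is near the share over all probe sets. Over the averaged effect 26 of the 75 had a value above 0 and 49 below, with a median of -0.07. Of all probe sets 49.8% had a value above 0, with a median of -0.00. The genes of a list were read on the same arrays, so their signs are not independent, here and in each list below.

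In the carnitine shuttle, which carries acyl groups across the mitochondrial membranes, 5 of 7 genes were measured. Cpt1a, the outer-membrane transferase ahead of Cpt2, ranged from 543.2 to 1310.2 and had changes of 0.07, 0.02 and 0.17 at 30 min, 4 h and 48 h. Slc25a20, the carnitine-acylcarnitine carrier, ranged from 715 to 1041.3 with -0.18, 0.04 and -0.01, and Crat, carnitine acetyltransferase, from 1516.6 to 2981.5 with -0.10, -0.00 and 0.09. The carnitine importer Slc22a5 had an averaged change of 0.16, and Slc22a4, near background, had -0.14. With 2 genes higher and 3 lower over the averaged effect (median -0.01), the shuttle showed no common direction.

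In the list of later mitochondrial steps and auxiliary enzymes, every measured gene had an averaged GH effect below 0, from -0.51 to -0.01. None passed. Pccb, which sets the -0.51, is among the auxiliary enzymes, so the list does not stand for the later steps alone. Of the 11 measured genes for mitochondrial hydratases, hydroxyacyl dehydrogenases, thiolases and auxiliary enzymes, all of them above background, 11 were lower and 0 higher over the averaged effect, with a median of -0.09 against -0.00 for all probe sets. Of all probe sets 49.8% were above 0. The signs of the 11 are not independent, and whether so many below 0 are unusual was not tested. By limma 2 of the 11 had an unadjusted p below 0.05, against 776 of all 12422 probe sets (6.25%). With the block 0 passed and 4 had such a p, against 1155 of 12422 (9.3%). Among probe sets with a mean above the limit the shares with such a p were 7.37%, and 11.9% with the block. Pccb, a subunit of propionyl-CoA carboxylase, had -0.51 (adjusted p with the block 0.0785), with a signal of 339 ± 48.2 with GH and 616 ± 157 in controls at 4 h. Echs1, the short-chain enoyl-CoA hydratase, had -0.32, with 1977 ± 237 with GH and 2735 ± 87 in controls at 4 h (SD, n = 3 each). Hadh (-0.20), Hadhb (-0.07), Hsd17b10 (-0.21) and Acaa2 (-0.06), which carry out the dehydrogenase and thiolase steps, had the same sign. By time, 9, 10 and 8 of the 11 were lower at 30 min, 4 h and 48 h, and Acaa2 was the 1 higher at 4 h (0.22). Within experiments 1, 2 and 3, 5, 6 and 7 of 11 were lower at 30 min, 9, 10 and 10 at 4 h, and 6, 6 and 11 at 48 h. The 11 at 48 h came from experiment 3, whose control array is 1 of the 3 with a conflicting description.

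Among the other acyl-CoA dehydrogenases and the electron transfer flavoproteins that accept their electrons, 7 of 11 genes were measured, and over the averaged effect 1 was higher and 6 lower (median -0.13). Etfb, a subunit of the electron transfer flavoprotein, had 4070 ± 125 with GH and 5923 ± 581 in controls at 48 h (mean signal ± SD, n = 3 each), a change of -0.53 that did not pass (limma, adjusted p = 0.331, with the block 0.158). Ivd, for isovaleryl-CoA dehydrogenase, had an averaged change of -0.16. Acads, the short-chain member of the same enzyme family, had -0.13, and Acad9 was the 1 higher at 0.14. Acadm, at 0.08, thus had the opposite sign to most of these genes, a difference that was not tested.

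Peroxisomal oxidation was represented by 16 of 25 listed genes. Over the averaged effect 7 were higher and 9 lower (median -0.03), and none passed. Cat, for catalase, which removes the hydrogen peroxide that peroxisomal oxidation makes, had 1830 ± 473 with GH and 2851 ± 368 in controls at 48 h (a change of -0.65; adjusted p = 0.450, with the block 0.102). The peroxisomal hydratase-dehydrogenase Hsd17b4 had a change of -0.16 at 48 h, and the thiolase Acaa1a -0.16. Ehhadh stayed near background, at 1.7 to 33.7. Scp2, for sterol carrier protein 2, had 12126 ± 6080 with GH and 6906 ± 1055 in controls at 48 h (0.66, limma, adjusted p = 0.831). Its 48 h values within experiments 1, 2 and 3 were 1.24, 1.29 and -0.55. An unplanned fit with the block left out the GH array of experiment 3, where the sign was opposite. That fit gave 1.20 (limma, adjusted p = 0.0488), which does not show a change, since the opposing array was the one removed. At 4 h both Cat and Scp2 were lower with GH in 3 of 3 experiments, with changes of -0.56 each, and neither passed.

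**Figure D3:**
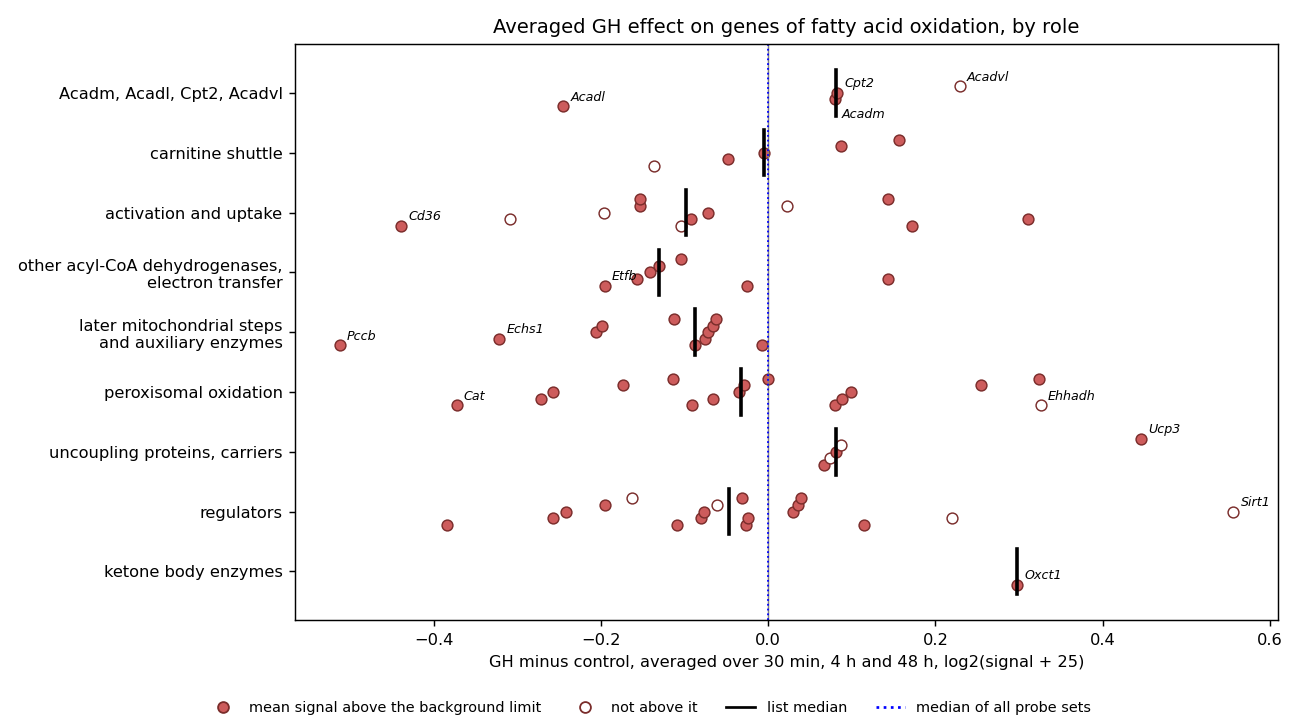
Averaged GH effect (horizontal axis, GH minus control on the log2(signal + 25) scale over 30 min, 4 h and 48 h) for each measured gene of the pathway, in rows by role; filled points have a mean signal above the background limit and the vertical bar in each row is its median. All 11 genes in the row of later mitochondrial steps and auxiliary enzymes lie below 0, down to -0.51 for the auxiliary enzyme gene Pccb. They were read on the same arrays, so their signs are not independent. None of the points passed by limma.

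Among genes for fatty acid uptake and activation, 12 of 15 were measured, 4 higher and 8 lower over the averaged effect (median -0.10). Cd36, a fatty acid translocase, had 198 ± 44.7 with GH and 359 ± 76.9 in controls at 48 h (-0.79, adjusted p = 0.208, with the block 0.0812). Slc27a4, a fatty acid transport protein, had an averaged change of 0.31, and Fabp5, a fatty acid binding protein, -0.07. Neither of these, nor any other member, passed.

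Of the uncoupling proteins and related carriers 5 of 6 were measured. Ucp3, an uncoupling protein best known from muscle, was close to the background limit, with 200 ± 52.1 with GH and 106.5 ± 8.29 in controls at 48 h (0.75, adjusted p = 0.432, with the block 0.220). Ucp1 was below the limit on all arrays. Slc25a4, an ADP/ATP carrier, had an averaged change of 0.08 and 7706 ± 434 with GH against 7197 ± 582 in controls at 48 h. All 5 were higher over the averaged effect (median 0.08), 3 of them with a mean above the limit, and none passed.

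Regulators of oxidation were measured for 18 of 25 listed genes, with 6 higher and 12 lower over the averaged effect (median -0.05) and none past the threshold. The nuclear receptors Ppara (171.8 to 354.8 over the 18 arrays), Esrra (981.4 to 1937) and Pparg (2028.8 to 3773.2, on an _s_at probe set that can read related transcripts) had averaged changes of 0.03, 0.04 and -0.03. Their coactivator gene Ppargc1a was below the background limit on all arrays, at 5.4 to 92.4. Pdk1, a pyruvate dehydrogenase kinase, had 482 ± 26.6 with GH and 675 ± 91.5 in controls at 4 h (-0.46, adjusted p = 0.360). Txnip had an averaged change of -0.08, and Sirt1, near background, had 0.56.

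Pdk4 and Angptl4, known targets of the PPAR receptors in fatty acid use, are named after their values were seen, because they passed at 4 h when the replicate block was added and 1 array was left out as well. Pdk4, a kinase that turns pyruvate away from oxidation, had 293.7, 339.8 and 514.4 with GH, against 1962.5, 1310.5 and 289.1 in controls at 4 h. Angptl4, an inhibitor of lipoprotein lipase read on an _s_at probe set, had 2362.6, 2133.6 and 1989 with GH, against 5958.5, 6768.5 and 1982.1 in controls. In experiments 1 and 2 both were lower with GH, by -2.64 and -1.87 for Pdk4 and by -1.33 and -1.65 for Angptl4, while experiment 3 had 0.78 and 0.00. In experiment 3 the control array was low too, and the GH array is the one described as GH 30 min. Over all arrays the changes were -1.24 ± 0.67 and -0.99 ± 0.46 (limma, adjusted p = 0.803 and 0.711, with the block 0.355 and 0.157). In an unplanned fit with the block and without the GH 4 h array of experiment 3, they were -1.98 (limma, adjusted p = 0.0165) and -1.28 (0.0337). That fit does not show a change, since the array left out was from the experiment without a fall. Without that array and with no block, 0 of the 75 related genes passed at 4 h. At 48 h the differences within experiments 1, 2 and 3 were 1.01, 0.68 and -0.50 for Pdk4. For Angptl4 they were 0.49, -0.05 and -0.58. The control signal itself moved between times, for Angptl4 from 4903 ± 2562 at 4 h to 2197 ± 423 at 48 h (mean ± SD, n = 3 each).

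Oxct1, the enzyme by which cells outside the liver use ketone bodies, was the 1 measured gene of the ketone body list and, with the replicate block and all 18 arrays, the 1 related gene that passed in a GH comparison; without the block it did not pass. At 48 h it had 4404.6, 6020.5 and 3578.1 with GH, against 2071.2, 2286.1 and 2998.1 in controls. The groups did not overlap (10.2% of all probe sets were likewise clear at 48 h, 5.23% upward), and GH was higher within each of the 3 experiments, by 1.08, 1.39 and 0.25. The change was 0.91 ± 0.24 (limma, adjusted p = 0.172), and with the block Oxct1 rose past the threshold (adjusted p = 0.0331). Without 1 array, with the block, adjusted p was 0.130 to 0.161 when an array of experiment 1 or 2 was left out, and 0.00149 and 0.0316 when the control or GH array of experiment 3 was. At 30 min and 4 h its changes were 0.02 and -0.04. In controls it was lower at 48 h (2452 ± 485) than at 30 min (3753 ± 613), a difference of -0.61 that did not pass (adjusted p = 0.846, with the block 0.236).

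**Figure D4:**
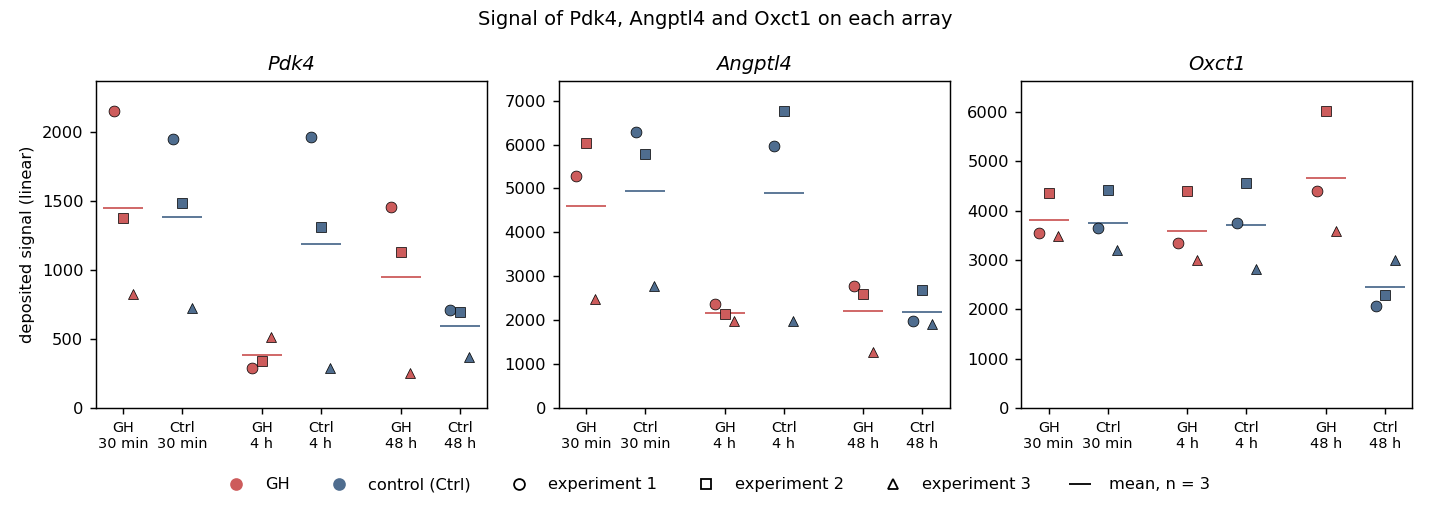
Deposited signal (linear, vertical axis) of Pdk4, Angptl4 and Oxct1 on each array, with GH left of control at 30 min, 4 h and 48 h; symbols are experiments and dashes the means of 3 arrays. Pdk4 and Angptl4 are low with GH and high in controls at 4 h in experiments 1 and 2 only, and all 3 Oxct1 values at 48 h are higher with GH (3578.1 or more) than in controls (2998.1 or less). At 48 h Pdk4 is higher with GH in experiments 1 and 2 and lower in experiment 3.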

How the data were processed

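The deposited table holds the authors' signal intensity for 12488 probe sets on 18 arrays. The summary method, scaling and software behind these intensities are not given in the sources used here. After trimming 2% of probe sets at either end, all 18 array means came to 500.3, so the deposited values were already scaled, and array medians were 149.7 to 182.7. The 66 control probe sets were left out. With 1 gene symbol were 10833 probe sets, with several 396, with none 1193, and the 6 studied matched RefSeq symbols by gene identifier. A gene was stood for by its probe set with the highest mean.

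Signals were analysed as log2(signal + 25), so changes of dim transcripts are understated. limma 3.58.1 (R 4.3.3) fitted 6 groups over 18 arrays, two-sided, with Benjamini-Hochberg adjustment over 12422 probe sets, for 10 comparisons, and was tested on simulated data. The experiment number pairs the samples: deviations from the group means of same-numbered GH and control arrays had correlations of 0.151 to 0.457, all over 0.1. The GH 48 h array of experiment 2, however, was closer to the control array of experiment 1 (0.213) than to its own (0.151). The unpaired fit was the main one and the blocked fit an alternative, although same-numbered arrays were correlated. With the block the SE of a GH change at each time was 0.17 for Acadm, 0.18 for Cpt2 and 0.29 for Acadl. Without it the SE was 0.19, 0.23 and 0.34. For Acadvl 93334_at it was 0.24 with the block and 0.23 without.

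The members and lists were chosen with earlier results of these data known. Of related genes, the text names those past the threshold in a GH comparison with or without the block, the 2 of each list with the lowest averaged p and the one with the highest mean. Cpt1a, Slc25a20, Hadh, Hadhb, Hsd17b10, Hsd17b4, Acaa1a, Acads, Ppara, Pparg, Esrra and Ppargc1a are added for their role, with values known. Acad9 is named for its value, as the 1 higher gene of its list, and Pdk4 and Angptl4 are named after their values were seen. The number of arrays limits precision.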

Additional observations from a re-analysis of the deposited data

Results flagged for a closer look

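The signal of Acadvl probe set 93334_at differed between GH and control with opposite signs at different times, lower with GH in 3 of 3 experiments at 30 min and higher in 3 of 3 at 4 h and at 48 h. The difference between the GH effects was 1.84 for 4 h minus 30 min and 1.71 for 48 h minus 30 min on the log2(signal + 25) scale (limma, adjusted p = 0.0687 and 0.0936), so neither passed, nor did the difference at any single time (adjusted p = 0.645, 0.284 and 0.311). All 18 signals lie below the background limit of 105.6, so no change of the transcript is shown, and the second Acadvl probe set did not share the pattern. Groups had 3 arrays each, too few to test whether a single array stands apart, although each array was left out in turn.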

How the results depend on the processing

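Of 485 values recomputed under other settings, 453 kept their direction and their side of the threshold, 17 passed only under the other setting and 15 changed sign, none of which passed. Many of the 485 are counts that were 0 in the main fit, so this total does not measure how stable single changes are. The sign turned in 4 values for Acadl and 3 for Cpt2 at 30 min. At 48 h it turned in 2 for Acadl, 4 for Cpt2 and 1 for Acadm. For each of these genes all 14 values at 4 h kept their sign. The number of the 6 probe sets past the threshold stayed at 0 for GH against control at each time under every setting run. It became 1 (Acadvl 93334_at, below background) for the difference 4 h minus 30 min with a pseudocount of 5 (3.71, adjusted p = 0.0187) or quantile normalization (1.72, 0.0396), and ranged from 0 to 1 when single arrays were left out (2.02 without the control 30 min array of experiment 2, 0.0470). For 48 h minus 30 min it became 1 with a pseudocount of 5 (3.26, 0.0346) or quantile normalization (1.57, 0.0415). The replicate block brought 1 related gene, Oxct1, past the threshold at 48 h (0.91) and changed no other call of the probe sets or related genes; over all probe sets it moved the calls to 10, 45 and 158 at 30 min, 4 h and 48 h, against 5, 15 and 42. With the block and without the 3 arrays whose descriptions conflict, a setting chosen after seeing the data, 2 related genes passed at 4 h (Pdk4 and Angptl4) and 1 at 48 h (Oxct1, 1.20). The arrays left out include the GH 4 h array of experiment 3, the experiment without a fall in Pdk4 or Angptl4. The fits with the block and 1 array left out were not planned either. Without those 3 arrays the sign turned for Acadl (0.15) and Cpt2 (0.083) at 30 min and for Cpt2 at 48 h (0.19), and quantile normalization turned Cpt2 at 48 h (0.030). Leaving out single arrays gave -0.087 to 0.34 for Acadm at 48 h, -0.30 to 0.15 for Acadl at 30 min, -0.44 to 0.27 for Acadl at 48 h, -0.16 to 0.094 for Cpt2 at 30 min, -0.12 to 0.19 for Cpt2 at 48 h and -0.36 to 0.04 for the Acadvl difference 48 h minus 4 h. With only the compared groups' arrays in the fit, 3, 0 and 0 probe sets passed at the 3 times; with the 3 arrays left out, 3, 32 and 41. The cause was not tested. With 3 arrays per group and signals below background for Acadvl, small changes cannot be resolved.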
